A study of Caenorhabditis elegans with 12 samples.

Results

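Transcripts of the BBSome, the transition zone and other proteins of the ciliary base and membrane were followed in sorted cells of C. elegans larvae. The list holds 31 genes of the 46726 in the deposited count table, listed by name and role with earlier results of these data known, and all 31 were found by symbol. They comprise 7 BBSome subunits, 3 small GTPases of the cilium, 8 genes of the MKS module, 2 of the NPHP module, the inversin gene nphp-2, the transition zone scaffold gene mks-5, 2 genes of the basal body and rootlet, the tubby gene tub-1, 3 genes named for an X-box in their promoter, che-12, the kinase gene nekl-4 and the regulator daf-19. Of these, 30 passed the filter on low counts and were tested among 16690 genes. The remaining gene, arl-6, had 6 counts in all.

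The 12 libraries fall into 4 groups of 3: che-2 AMsh, wild type AMsh, che-2 non-AMsh and wild type non-AMsh. The mutants (strain OS11549) carry che-2(e1033), an allele of an intraflagellar transport gene, and both they and the wild type animals (strain OS4079) carry dsRed under the F16F9.3 promoter, which marks the amphid sheath (AMsh) glia that wrap the endings of amphid sensory neurons. Each of 6 liquid cultures of synchronised larvae (codes E30, E35 and E36 in each genotype, 20 °C, 36 to 42 h, L3 and L4 stages) gave 2 sorted fractions: dsRed-positive cells, called AMsh, and dsRed-negative cells, called non-AMsh, a mixture of all other cell types. A culture pools very many animals, the dsRed-positive events were 0.1 to 0.4% of all events, and the 0.4 to 5 ng of RNA per sample was amplified before sequencing. The question behind the design is what changes in the glia when their neurons' cilia fail to form properly.

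In C. elegans, cilia are built by sensory neurons, and AMsh glia themselves are not known to form one. The transition zone at the ciliary base holds the MKS and NPHP modules, assembled by MKS-5, and acts as a gate for membrane proteins. The BBSome is a coat-like complex that travels with intraflagellar transport (IFT) particles and carries membrane proteins, and ARL-3, ARL-6 and ARL-13 are GTPases of ciliary membrane traffic. Many of these genes carry an X-box, the binding sequence of the RFX transcription factor DAF-19.

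Library totals were 15420762 to 26019499 counts. The sort was checked with F16F9.3 itself, which was at 73.5, 465 and 257 CPM (counts scaled to library size) in che-2 AMsh libraries E30, E35 and E36, against 8.58, 5.19 and 6.75 CPM in che-2 non-AMsh libraries. It was at 94.7, 193 and 231.02 CPM in wild type AMsh and at 9.296, 5.23 and 4.40 CPM in wild type non-AMsh libraries. This shows enrichment but not purity. Summed over 10 muscle genes, the mean was 8142 CPM in che-2 AMsh and 7407 CPM in che-2 non-AMsh libraries, and 8445 and 9535 CPM in wild type. For 9 intestine genes the means were 3570 and 3889 CPM in che-2, and 6733 and 7533 CPM in wild type. Levels in AMsh libraries are therefore not levels of glia alone. The che-2 transcript was at 0.669, 12.5 and 4.69 CPM in che-2 AMsh and 0, 2.18 and 0.666 CPM in wild type AMsh libraries, so its level did not separate the genotypes (log2 fold change 2.64, edgeR adjusted p = 0.525), and it is not a check of the labels, since the sources used here do not say that the allele lowers the transcript. A pair of libraries had the fewest detected genes, che-2 AMsh E35 with 15711 and wild type AMsh E30 with 14101, against 17555 to 19298 in the others. Some collagen genes differed widely among the che-2 cultures. In E30, E35 and E36, col-19 was at 19.4, 3417 and 370 CPM in AMsh and 23.4, 2604 and 697 CPM in non-AMsh libraries. There bli-1 was at 831, 35.7 and 122 CPM and at 560, 32.4 and 101 CPM. In wild type AMsh libraries col-19 was at 159, 72.0 and 174 CPM and bli-1 at 438, 434 and 562 CPM. In wild type non-AMsh libraries col-19 was at 22.4, 92.3 and 288 CPM, so it varied among wild type cultures as well, and bli-1 at 293, 306 and 298 CPM. Whether the cultures differed in stage was not tested. For many of the results below that rest most on 1 library, the value without it is given beside them.

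The levels of the 31 genes were low. Per kilobase of exon, a scale that allows for exon length, the median over the 12 libraries was at or above 1 CPM per kb for 22 genes. Whether coverage was even along the transcripts after amplification was not tested, so the order of genes is approximate. hyls-1, which encodes a centriole and basal body protein (WBGene00015466, chromosome V, 7237393 to 7239662), was highest with a median of 17.4 CPM per kb. It also had the smallest median spread within groups: its level was 11.8, 24.97 and 12.6 CPM in che-2 AMsh, 25.5, 27.03 and 20.2 CPM in wild type AMsh, 20.2, 23.6 and 20.0 CPM in che-2 non-AMsh and 16.1, 15.3 and 21.8 CPM in wild type non-AMsh libraries. The groups overlap in each comparison for this gene. arl-3 (12.1 CPM per kb), the BBSome genes bbs-5 (10.96) and bbs-8 (8.14) and the rootletin gene che-10 (6.72) followed in median level per kb. The deposited arl-3 model (14607212 to 14608051, 555 exon bases) is shorter than the reference gene (14606472 to 14608342), so its place is uncertain.

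At the other end stood mks-6 with a median of 0.172 CPM per kb, tub-1 with 0.128, the transmembrane gene jbts-14 with 0.0810 and mks-5 with 0.0677. arl-6 had 3 counts in che-2 AMsh E36, 3 in che-2 non-AMsh E35 and 0 in the other 10 libraries, each of which allows at most 0.122 to 0.174 CPM (3 counts on the same scaled library size, counting error only). The order is one of medians, and the libraries of neighbouring genes overlap widely in the plot of levels.

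**Figure D1:**
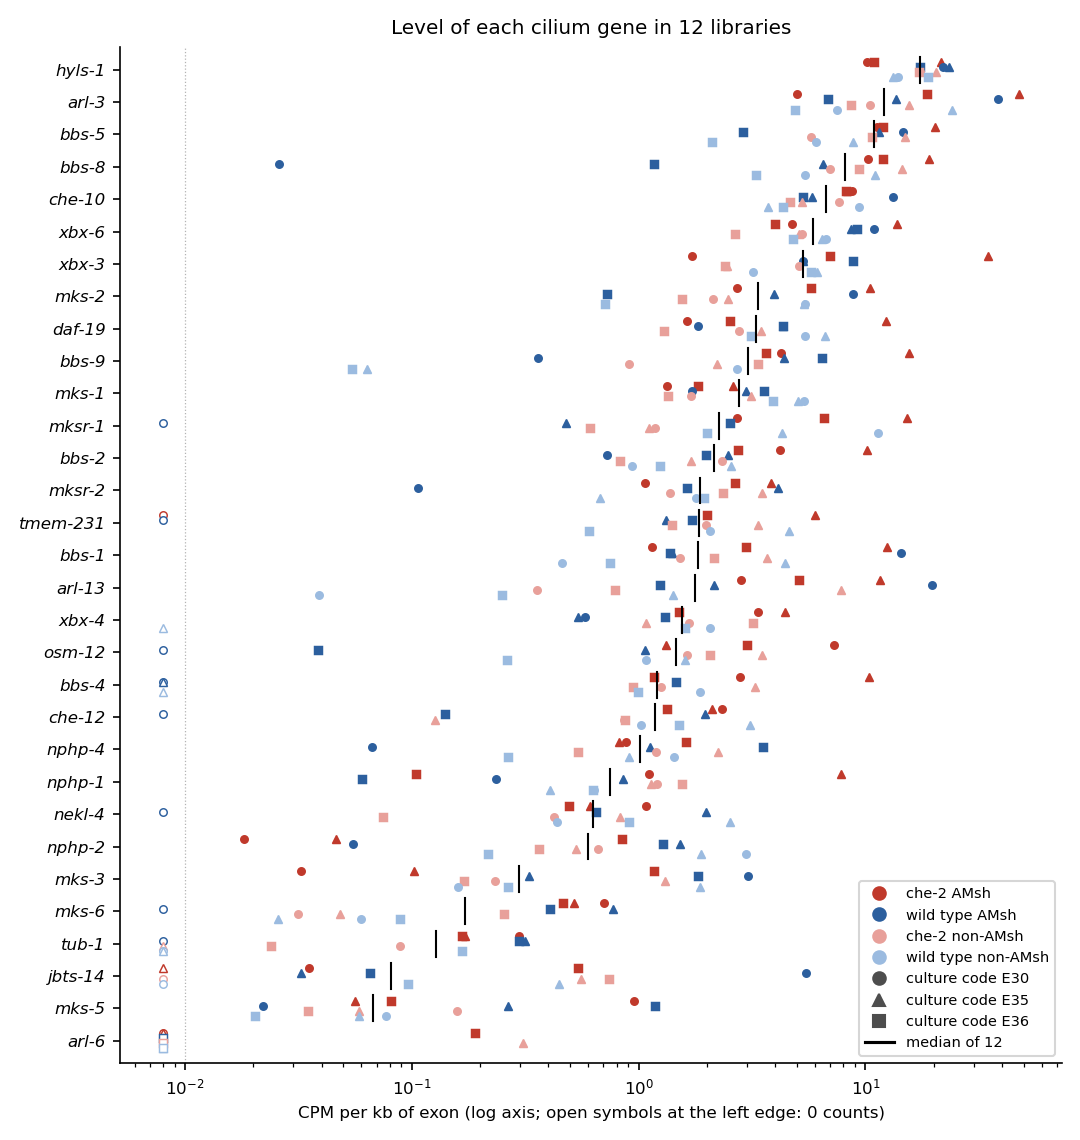
Level of each of the 31 genes in CPM per kb of exon (log axis) in 12 libraries, coloured by group and shaped by culture code, with the median of the 12 as a bar and libraries at 0 counts as open symbols at the left edge. hyls-1, at the top with a median of 17.4 CPM per kb, spreads little, while jbts-14 and mks-5, near the bottom, range widely around medians under 0.1 CPM per kb.

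Detection was uneven from library to library. Counts were found in every library for 20 of the 31 genes. In wild type AMsh E30, 9 of the 31 genes had no count, against 0 to 4 in each of the other libraries. Of the 30 tested members, 26.7% had no count in that library, where the share over all tested genes was 19.9%. Yet the same library held the highest level of any for 5 members. bbs-1 had 614 counts there (27.4 CPM), while bbs-8, a subunit of the same complex, had 1 count (0.0446 CPM).

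jbts-14 had 155 of its counts, 68.9% of all it received, in wild type AMsh E30. che-2 AMsh E35 was the highest of the 12 libraries for 14 members, and its summed level over the 31 genes was 418 CPM, against 112 to 248 CPM in the other libraries. The coefficient of variation within groups had a median of 70.1% over the 30 members and of 46.7% over all tested genes. The 2 sets were not matched for level. The median member lay below the median tested gene in every library but che-2 AMsh E35, for example 1.38 against 7.61 CPM in wild type non-AMsh E36. The coefficient was 17.4% for hyls-1, 25.5% for xbx-6, 33.6% for mks-1 and 144% for jbts-14 (medians over the 4 groups).

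No member passed the test in any of the 5 comparisons. edgeR's quasi-likelihood test with Benjamini-Hochberg adjustment at 0.05 called 0 of 30 in each, and DESeq2 called 0 as well. Over all 16690 genes the edgeR test called 0.593% between the fractions of che-2, 0.437% between the fractions of wild type, 0.461% between genotypes in AMsh, 0.144% between genotypes in non-AMsh, and 0.0% for the difference between the fraction changes of the genotypes. At an unadjusted p under 0.05 the members numbered 3 between the fractions of che-2 (2.98% of all tested genes), 1 between the fractions of wild type (3.81%), 5 between genotypes in AMsh (12.8%), 0 between genotypes in non-AMsh (10.3%) and 1 for the difference of changes (1.68%). What follows describes sizes and overlaps of groups, none of which passed the adjusted test.

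The AMsh and non-AMsh fractions of the che-2 cultures were compared first. Of the tested members, 24 of 30 log2 fold changes were above 0 and 6 below (49.7% of all tested genes were above 0). Their median was 0.92 where the median of all tested genes was 0.00. The libraries of the groups did not overlap for 8 members, all higher in AMsh, while 4.52% of tested genes were higher and 3.56% lower without overlap. These 8 were bbs-2, bbs-9, mks-2, mks-6, mksr-1, tub-1, che-10 and che-12. The median rested on 1 library. It was 0.14 without che-2 AMsh E35, when 8 members were higher and 2 lower without overlap (8.77% and 6.54% of tested genes).

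All 7 BBSome genes had a log2 fold change above 0 in this comparison, from 0.42 to 1.85 (49.7% of all tested genes were above 0). bbs-2, a propeller subunit of the complex (WBGene00000242, chromosome IV, 7934097 to 7937746), was at 9.36, 22.5 and 6.07 CPM in che-2 AMsh libraries E30, E35 and E36, against 5.16, 3.77 and 1.83 CPM in che-2 non-AMsh libraries. Every AMsh library lay above every non-AMsh library, with a log2 fold change of 1.82 (SE 0.72, edgeR adjusted p = 1.00), or 1.10 without che-2 AMsh E35. bbs-9 was at 9.45, 34.9 and 8.16 CPM in AMsh against 2.03, 4.95 and 7.55 CPM in non-AMsh libraries of che-2.

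In the MKS module, 5 of 8 log2 fold changes were above 0 and 3 below (49.7% of all tested genes were above 0). mksr-1, which encodes a B9 domain protein (WBGene00019364, chromosome X, 1066789 to 1069033), was at 1.87, 10.52 and 4.55 CPM in che-2 AMsh against 0.812, 0.766 and 0.422 CPM in che-2 non-AMsh libraries (log2 fold change 3.07, SE 1.31, edgeR adjusted p = 1.00). The groups did not overlap, and the value was 2.26 without che-2 AMsh E35. mks-2, which encodes a small membrane protein related to human TMEM216 (WBGene00194710, chromosome II, 6218619 to 6219511), was at 1.56, 5.96 and 3.29 CPM against 1.22, 1.41 and 0.891 CPM (1.61, SE 1.01, edgeR adjusted p = 1.00). Its log2 fold change was 1.04 without che-2 AMsh E35. mks-6, related to human CC2D2A, was at 2.59, 1.91 and 1.70 CPM in AMsh against 0.116, 0.177 and 0.938 CPM in non-AMsh libraries of che-2, again apart.

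xbx-3 (WBGene00010864, chromosome III, 10036004 to 10036796) had the second smallest p, and its fold change rested on 1 library. It was at 1.11, 22.5 and 4.51 CPM in che-2 AMsh against 3.30, 1.59 and 1.55 CPM in che-2 non-AMsh libraries (2.12, SE 0.90, edgeR adjusted p = 1.00), and the log2 fold change was 0.39 without che-2 AMsh E35. che-10, the rootletin gene, was at 53.9, 51.3 and 50.7 CPM in AMsh against 47.4, 32.7 and 28.8 CPM in non-AMsh libraries, with the smallest spread of any member among the che-2 AMsh libraries. tub-1, whose protein brings membrane receptors to cilia, was apart at very low levels, with 0.580, 0.337 and 0.325 CPM in AMsh against 0.174, 0 and 0.0469 CPM in non-AMsh libraries.

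Because each culture yielded both fractions, the members were also compared culture by culture. In che-2, 17, 22 and 26 of 30 were higher in AMsh than in non-AMsh in cultures E30, E35 and E36, where 49.7, 44.3 and 48.8% of all tested genes were. Of the 30 members, 12 were higher in AMsh in all 3 cultures and 0 were higher in none of them (12.99% and 16.3% of tested genes). In wild type the numbers were 11, 13 and 20 of 30, with 39.2, 47.4 and 42.1% of tested genes. There, 4 members were higher in AMsh in all 3 cultures and 5 in none (9.50% and 20.2% of tested genes).

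In wild type the fractions gave a mixed picture: 18 log2 fold changes were above 0 and 12 below (42.6% of all tested genes were above 0). Their median was 0.39 (−0.10 over all tested genes). The median was −0.15 without wild type AMsh E30. xbx-6 was the 1 member higher without overlap and mks-1 the 1 lower (3.74% and 4.91% of tested genes). xbx-6 was at 17.8, 14.1 and 14.9 CPM in wild type AMsh against 10.8, 10.51 and 7.78 CPM in wild type non-AMsh libraries. Its exons share 888 bases with tag-120 on the other strand, and the counting is not stated to use strand, so reads of the 2 genes cannot be told apart there. mks-1, a B9 domain gene (WBGene00020100, chromosome III, 3186700 to 3192206), was at 2.76, 4.74 and 5.70 CPM in wild type AMsh against 8.55, 8.06 and 6.27 CPM in wild type non-AMsh libraries. Without wild type AMsh E30, 5 members were higher and 1 lower without overlap (9.57% and 9.16% of tested genes).

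The smallest p in wild type belonged to arl-13 (WBGene00021349, chromosome I, 2065727 to 2069049), whose human relative is mutated in Joubert syndrome. It was at 22.4, 2.43 and 1.41 CPM in wild type AMsh against 0.0441, 1.60 and 0.285 CPM in wild type non-AMsh libraries (3.76, SE 1.52, edgeR adjusted p = 1.00). Its exons share 9 bases with the ribosomal gene rla-1 on the other strand. The groups overlapped, and the log2 fold change was 1.58 without wild type AMsh E30 and 5.67 without wild type non-AMsh E35. mks-5 was at 0.0891, 1.07 and 4.74 CPM in AMsh against 0.308, 0.236 and 0.0814 CPM in non-AMsh libraries of wild type (3.21, SE 1.55, edgeR adjusted p = 1.00), and its log2 fold change was 1.46 without wild type AMsh E36, which held 41.8% of its counts. mks-6 was at 0, 2.84 and 1.498 CPM against 0.220, 0.0942 and 0.326 CPM (2.72, SE 1.48, edgeR adjusted p = 1.00), and its value was 1.78 without wild type AMsh E35. mksr-1 went the other way, with 0, 0.3296 and 1.75 CPM in AMsh against 7.84, 2.97 and 1.38 CPM in non-AMsh libraries (−2.54, SE 1.28, edgeR adjusted p = 1.00). That value was −4.56 without wild type AMsh E36 and −1.64 without wild type non-AMsh E30.

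**Figure D2:**
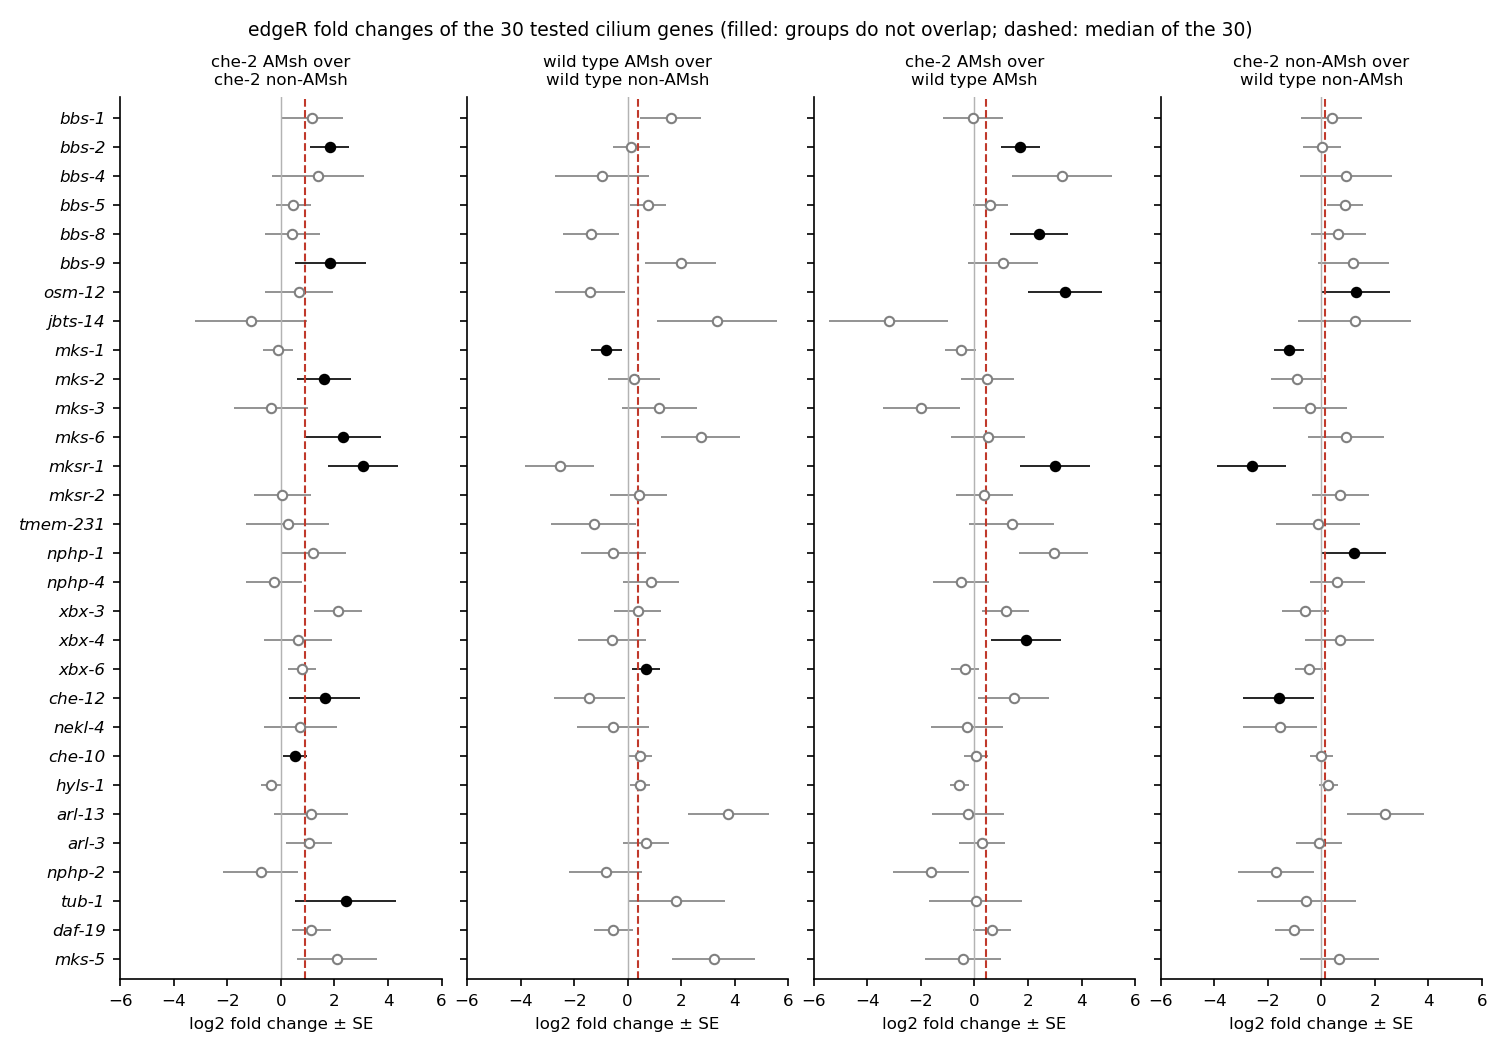
edgeR log2 fold changes with their SE for the 30 tested genes, ordered by role, in 4 comparisons, with the group on top named first above each panel. Filled points mark genes whose groups do not overlap, 8 in the first panel, 2 in the second and 5 in each of the others, and dashed lines mark the member medians of 0.92, 0.39, 0.42 and 0.15.

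The comparison of che-2 with wild type AMsh cells shares its mutant libraries with the fractions of che-2, so the values are not independent of those above. Of 30 log2 fold changes, 19 were above 0 and 11 below (55.3% of all tested genes were above 0). Their median was 0.42 (0.12 over all tested genes), which was −0.04 without che-2 AMsh E35. The groups did not overlap for 5 members, all higher in che-2: bbs-2, bbs-8, osm-12, mksr-1 and xbx-4. That is 16.7% of the members, where 11.29% of all tested genes were higher and 5.69% lower without overlap. Without both libraries that detected the fewest genes, 7 members were higher and 7 lower without overlap, where 25.2% and 18.6% of tested genes were. The share of members apart is therefore near the background.

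Of these 5, 3 were BBSome genes. osm-12, the C. elegans BBS7 gene (WBGene00003892, chromosome III, 12191056 to 12202450), was at 15.7, 2.87 and 6.500 CPM in che-2 AMsh libraries E30, E35 and E36, against 0, 2.31 and 0.0832 CPM in wild type AMsh libraries. The lowest mutant library lay just above the highest wild type library (log2 fold change 3.38, SE 1.40, edgeR adjusted p = 0.338), and the value was 2.55 with che-2 AMsh E30 left out, or 7.44 with the E35 library of wild type AMsh left out. bbs-2 was at 9.36, 22.5 and 6.07 CPM in che-2 against 1.60, 5.52 and 4.41 CPM in wild type AMsh libraries (1.71, SE 0.71, edgeR adjusted p = 0.341). Its log2 fold change was 1.00 without che-2 AMsh E35 and 0.63 without both libraries that detected the fewest genes. bbs-8, a subunit with tetratricopeptide repeats (WBGene00000244, chromosome V, 6762476 to 6765072), was at 17.6, 32.5 and 20.4 CPM in che-2 against 0.0446, 11.1 and 2.00 CPM in wild type AMsh libraries.

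The other 4 subunits overlapped between genotypes. bbs-4 was at 3.88, 14.4 and 1.63 CPM in che-2 AMsh against 0, 0 and 2.04 CPM in wild type AMsh libraries. bbs-5, a subunit that binds phosphoinositides in mammals, was at 12.2, 21.9 and 13.04 CPM against 15.8, 12.4 and 3.12 CPM. bbs-9 was at 9.45, 34.9 and 8.16 CPM against 0.802, 9.81 and 14.3 CPM. bbs-1 was at 2.18, 23.8 and 5.71 CPM against 27.4, 2.68 and 2.62 CPM, so each genotype had 1 library far above the other pair.

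**Figure D3:**
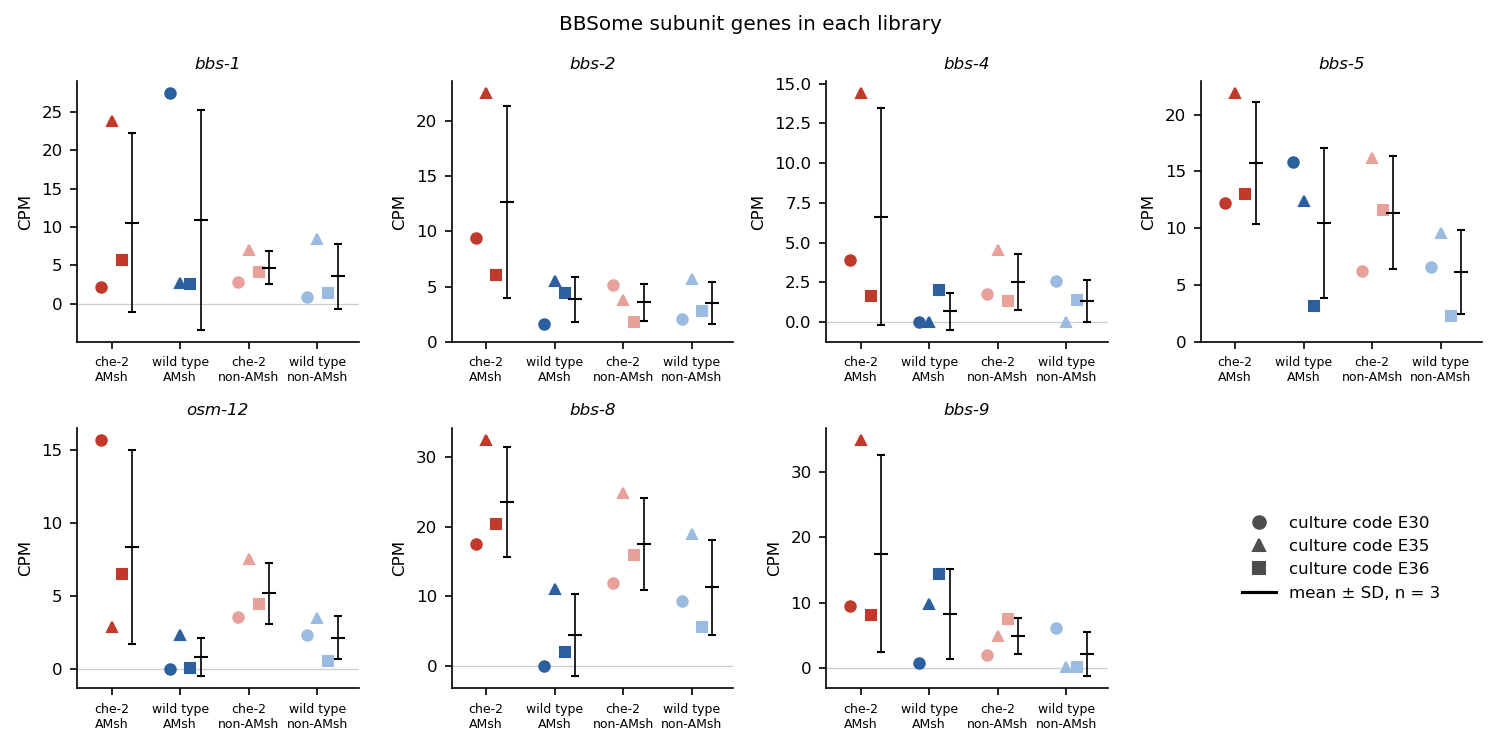
CPM of the 7 BBSome subunit genes in each of 12 libraries by group, with symbols for the culture code and the mean and SD of 3 libraries beside them. The che-2 AMsh points of bbs-2, bbs-8 and osm-12 all lie above the wild type AMsh points, and those of bbs-1, bbs-4, bbs-5 and bbs-9 do not.

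Summed over the 7 subunits, the BBSome genes were at 70.3, 153 and 61.5 CPM in che-2 AMsh libraries against 45.6, 43.8 and 28.6 CPM in wild type AMsh libraries. The means were 94.9 ± 50.4 and 39.3 ± 9.36 CPM (SD, n = 3 each), a ratio of 2.41, and the libraries did not overlap. The ratio of means was 1.68 without che-2 AMsh E35 and 1.82 without both libraries that detected the fewest genes, still with no overlap. In non-AMsh cells the sums were 33.5, 68.9 and 46.8 CPM in che-2 and 29.9, 46.3 and 14.2 CPM in wild type (ratio of means 1.65), and they overlapped. Between genotypes, 6 of 7 subunits in AMsh and 7 of 7 in non-AMsh cells had a log2 fold change above 0 (55.3% and 49.2% of all tested genes). The values ran from −0.05 for bbs-1 to 3.38 in AMsh and from 0.04 to 1.28 in non-AMsh cells. No p value is given for these sums, since the genes were grouped with results of these data known.

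The 8 genes of the MKS module summed to 9.18, 34.5 and 21.4 CPM in che-2 AMsh against 23.1, 16.4 and 18.3 CPM in wild type AMsh libraries, and to 9.45, 19.3 and 9.75 CPM in che-2 non-AMsh against 24.5, 26.9 and 11.7 CPM in wild type non-AMsh libraries. The ratio of means was 1.13 in AMsh and 0.610 in non-AMsh cells, with overlap in both. A test of the difference between the BBSome and the MKS module was not run. In AMsh cells, 5 MKS genes had log2 fold changes above 0 and 3 below, from −3.20 for jbts-14 to 3.01 for mksr-1 (55.3% of all tested genes were above 0). jbts-14 rested on the 155 counts of wild type AMsh E30. mks-3 was at 0.0892, 0.281 and 3.21 CPM in che-2 AMsh against 8.33, 0.906 and 5.03 CPM in wild type AMsh libraries, with overlap. Its exons share 29 bases with F35D2.6 on the other strand. tmem-231 was at 0, 8.44 and 2.82 CPM against 0, 1.85 and 2.41 CPM, also with overlap.

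mksr-1 was at 1.87, 10.52 and 4.55 CPM in che-2 AMsh against 0, 0.3296 and 1.75 CPM in wild type AMsh libraries (3.01, SE 1.30, edgeR adjusted p = 0.359), with the E30 mutant library just above the E36 wild type library. Its log2 fold change was 2.20 without che-2 AMsh E35, 1.63 without both libraries that detected the fewest genes and 5.04 without wild type AMsh E36. nphp-1, the gene of nephrocystin-1 (WBGene00010898, chromosome II, 10648938 to 10652256), was at 2.32, 16.3 and 0.217 CPM in che-2 against 0.490, 1.77 and 0.125 CPM in wild type AMsh libraries (2.96, SE 1.29, edgeR adjusted p = 0.363). Its groups overlapped, and 45.4% of its counts came from che-2 AMsh E35. The log2 fold change was 0.67 without that library, 0.41 without both libraries that detected the fewest genes and 4.33 without wild type AMsh E35. nphp-4 was at 3.52, 3.26 and 6.43 CPM against 0.267, 4.49 and 14.1 CPM, and its exons share 20 bases with the abundant collagen gene col-158. The inversin gene nphp-2 was at 0.0446, 0.112 and 2.06 CPM in che-2 AMsh against 0.134, 3.71 and 3.12 CPM in wild type AMsh libraries.

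Of the GTPase genes, arl-3 was at 2.76, 26.4 and 10.4 CPM in che-2 AMsh against 21.3, 7.58 and 3.79 CPM in wild type AMsh libraries. arl-13 was at 3.21, 13.2 and 5.78 CPM against 22.4, 2.43 and 1.41 CPM. Both genes followed the pattern of bbs-1, with a high library in each genotype, che-2 E35 and wild type E30. xbx-4, the last of the 5 members apart, was at 1.29, 1.69 and 0.578 CPM in che-2 AMsh against 0.223, 0.206 and 0.499 CPM in wild type AMsh libraries.

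Between genotypes in non-AMsh cells, 17 log2 fold changes were above 0 and 13 below (49.2% of all tested genes were above 0). Their median was 0.15 (−0.01 over all tested genes). The groups were apart for 2 higher members, osm-12 and nphp-1 (12.2% of tested genes were higher without overlap), and for 3 lower members, mks-1, mksr-1 and che-12 (10.0%). These shares, 6.67% and 10.0% of the members, are at or below those of all genes. osm-12 was at 3.54, 7.54 and 4.45 CPM in che-2 against 2.34, 3.49 and 0.570 CPM in wild type non-AMsh libraries. nphp-1 was at 2.49, 2.36 and 3.23 CPM against 1.32, 0.848 and 1.30 CPM.

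mks-1 had the smallest p here, at 2.72, 5.01 and 2.16 CPM in che-2 against 8.55, 8.06 and 6.27 CPM in wild type non-AMsh libraries (−1.21, SE 0.57, edgeR adjusted p = 0.507). mksr-1, whose product belongs to the same B9 complex, was at 0.812, 0.766 and 0.422 CPM against 7.84, 2.97 and 1.38 CPM (−2.60, SE 1.29, edgeR adjusted p = 0.536), or −1.70 without wild type non-AMsh E30. The partner gene mksr-2 was at 1.16, 2.95 and 1.97 CPM against 1.498, 0.565 and 1.63 CPM, with overlap. arl-13 was at 0.406, 8.90 and 0.891 CPM in che-2 against 0.0441, 1.60 and 0.285 CPM in wild type non-AMsh libraries (2.40, SE 1.45, edgeR adjusted p = 0.645). It depended on che-2 non-AMsh E35, without which the log2 fold change was −0.05, and was 4.31 without wild type non-AMsh E35.

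The difference between the fraction changes of the genotypes, an interaction of genotype and fraction, was largest by p for mksr-1. Its AMsh over non-AMsh ratio was 5.62 higher in che-2 than in wild type on the log2 scale (SE 1.83, edgeR unadjusted p = 0.0096, adjusted p = 1.00). The log2 difference was 4.23 to 7.64 over the alternatives run. mksr-1 was higher in AMsh in 3 of 3 che-2 cultures and in 1 of 3 wild type cultures. bbs-2 (1.68, SE 0.99), daf-19 (1.66, SE 1.02) and che-12 (3.06, SE 1.87) came next, each with an edgeR adjusted p of 1.00. Without che-2 AMsh E35 the difference was 0.97 for bbs-2 and 0.26 for daf-19, and over the alternatives it was 2.40 to 6.34 for che-12. Of 30 differences, 19 were above 0 and 11 below (57.3% of all tested genes were above 0). Their median was 0.48 (0.11 over all tested genes), and the median was 0.04 without che-2 AMsh E35.

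che-12, which encodes a protein with HEAT repeats needed for amphid cilium structure (WBGene00000491, chromosome V, 10299473 to 10307354), was at 9.76, 8.83 and 5.56 CPM in che-2 AMsh against 3.59, 0.530 and 3.66 CPM in che-2 non-AMsh libraries. In wild type it was at 0, 8.16 and 0.583 CPM in AMsh against 4.27, 13.002 and 6.31 CPM in non-AMsh libraries. The fractions thus had opposite orders in the genotypes, in every culture, with wild type AMsh E30 at 0 counts. The share of all tested genes with such orders was not counted, and the interaction did not pass (edgeR unadjusted p = 0.128). nekl-4, a kinase gene of the NEK family, was at 3.39, 1.91 and 1.55 CPM in che-2 AMsh against 1.33, 2.59 and 0.234 CPM in che-2 non-AMsh libraries, and at 0, 6.22 and 2.04 CPM in wild type AMsh against 1.37, 7.96 and 2.85 CPM in wild type non-AMsh libraries.

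**Figure D4:**
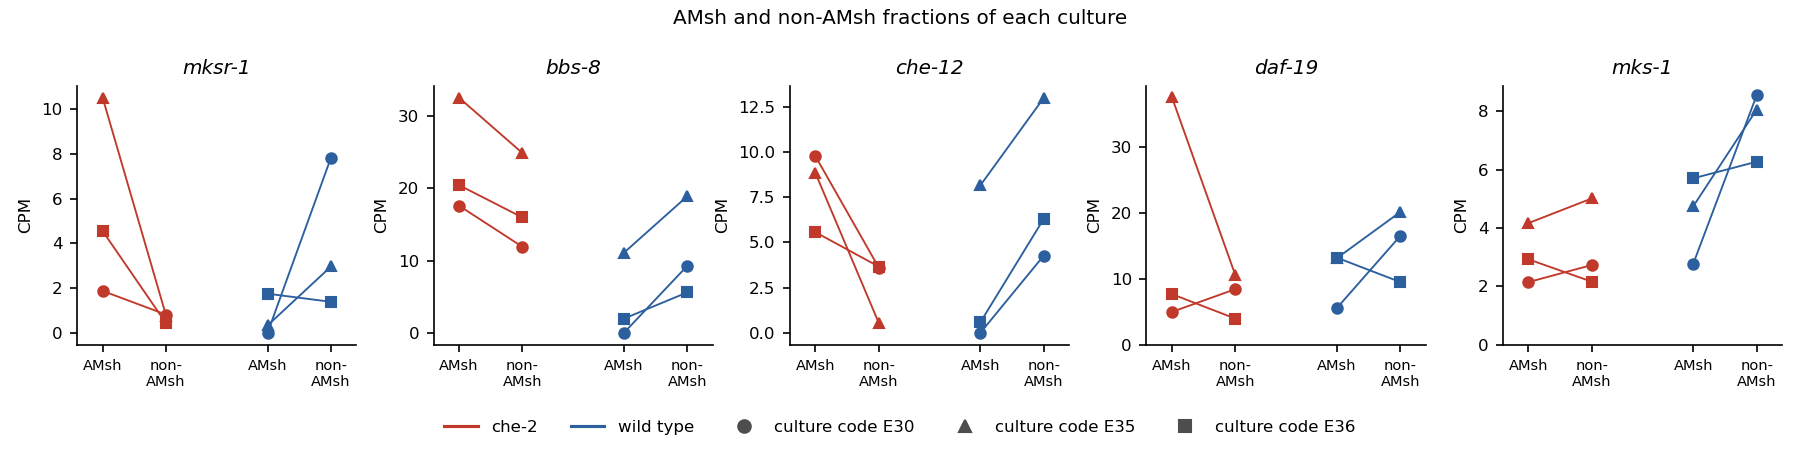
CPM of 5 of the genes in the AMsh and non-AMsh fractions of each culture, joined by a line, with che-2 at the left and wild type at the right of each panel. mksr-1, bbs-8 and che-12 are higher in AMsh in all 3 che-2 cultures, and bbs-8 and che-12 are lower in AMsh in all 3 wild type cultures, while che-2 AMsh E35 stands far above the other daf-19 points.

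daf-19, the RFX factor gene (WBGene00000914, chromosome II, 10157537 to 10169321), was at 4.95, 37.6 and 7.66 CPM in che-2 AMsh and 5.53, 13.1 and 13.2 CPM in wild type AMsh libraries. It was at 8.41, 10.6 and 3.94 CPM in che-2 non-AMsh and 16.5, 20.1 and 9.49 CPM in wild type non-AMsh libraries. A single library, che-2 AMsh E35, stood above all the others, and every pair of groups overlapped. Its log2 fold change was 1.13 between the fractions of che-2 (SE 0.72, edgeR adjusted p = 1.00) and −0.53 between those of wild type (SE 0.71, edgeR adjusted p = 1.00). Between genotypes it was 0.65 in AMsh (SE 0.72, edgeR adjusted p = 0.757) and −1.01 in non-AMsh cells (SE 0.72, edgeR adjusted p = 0.720). Without che-2 AMsh E35 the che-2 fraction value was −0.27 and the AMsh genotype value −0.75, so the sign of both rested on that library. The table gives 1 count per gene, so the isoforms of daf-19 are not resolved.

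The other cilium machinery gives a scale for these values. A list of 30 genes of intraflagellar transport, its motors and related functions, none of them among the 31, was tested in the same fit, and edgeR called 0 of 30 in each comparison. The list includes che-2 itself, the mutated gene, and dyf-7, whose product anchors dendrite tips and is not part of intraflagellar transport. Between genotypes in AMsh cells, 26 of its log2 fold changes were above 0 and 4 below (55.3% of all tested genes were above 0). The median of the list was 1.51, and 8 had an edgeR unadjusted p under 0.05 (12.8% of all tested genes). Its groups were apart for 11 genes higher and 1 lower in che-2 (11.29% and 5.69% of tested genes). Between genotypes in non-AMsh cells, 24 were above 0 and 6 below (49.2% of all tested genes were above 0). The median of the list was 1.02, and 9 were apart, all higher (12.2% of tested genes). Without che-2 and dyf-7, 24 of 28 were above 0 in AMsh and 22 of 28 in non-AMsh cells, with 11 higher and 1 lower apart in AMsh and 9 higher apart in non-AMsh cells. Summed, the IFT list was at 289.7, 743 and 293 CPM in che-2 AMsh against 112, 174 and 212 CPM in wild type AMsh libraries, and at 255, 342 and 238 CPM in che-2 non-AMsh against 127, 165 and 109 CPM in wild type non-AMsh libraries. The ratio of means in AMsh was 2.67, or 1.76 without che-2 AMsh E35, still with no overlap. In AMsh cells the BBSome and IFT sums were each apart between genotypes and the MKS sum overlapped. In non-AMsh cells the IFT sum was apart, and the BBSome and MKS sums both overlapped.

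Markers of cell types were read beside these sums, since in bulk samples fewer cells of a type and less RNA per cell cannot be told apart. The 20 pan-neuronal genes summed to 698 to 1242 CPM in che-2 AMsh and 778 to 1271 CPM in wild type AMsh libraries, and to 599 to 1023 CPM in che-2 non-AMsh and 815 to 1226 CPM in wild type non-AMsh libraries. Between genotypes, 15 of 20 in AMsh and 16 of 20 in non-AMsh had a log2 fold change below 0 (44.7% and 50.8% of all tested genes). The 16 tested genes of ciliated neurons other than cilium components had a median log2 fold change of −0.18 in AMsh and −0.37 in non-AMsh cells. All 20 listed genes of ciliated neurons summed to 67.5 to 116 CPM in che-2 AMsh and 73.8 to 93.5 CPM in wild type AMsh libraries, and 60.2 to 73.4 CPM in che-2 non-AMsh against 73.7 to 83.4 CPM in wild type non-AMsh libraries. In AMsh cells both neuron sums overlapped between genotypes. In non-AMsh cells the ciliated neuron sum was lower in every che-2 library than in any wild type library, but only just (73.44 against 73.66 CPM). This sum came in large part from tax-6, odr-4 and nlp-1, so it says little about the other listed genes. In wild type non-AMsh E36 they were at 31.6, 21.2 and 10.7 CPM of a sum of 73.7 CPM. In che-2 non-AMsh E36 they were at 20.2, 24.3 and 6.80 CPM of 60.2 CPM. tax-6 alone was at 26.6, 34.2 and 20.2 CPM in che-2 and 34.7, 31.8 and 31.6 CPM in wild type non-AMsh libraries.

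The summed sperm genes were higher in every che-2 AMsh library than in any wild type AMsh library, although edgeR called 0 of 10 (0.461% of tested genes), and 8 had an unadjusted p under 0.05 (12.8% of tested genes). The 10 listed summed to 406 to 1425 CPM in che-2 AMsh against 121 to 194 CPM in wild type AMsh libraries. There, 10 of 10 log2 fold changes were above 0 (55.3% of all tested genes), with a median of 2.24. The sums were 364 to 1938 CPM in che-2 non-AMsh against 90.3 to 382 CPM in wild type non-AMsh libraries. The 10 germ line genes had a median of 0.71 in AMsh and 0.90 in non-AMsh cells. The 9 intestine genes measured summed to 2341 to 4713 CPM in che-2 AMsh against 6482.5 to 7196 CPM in wild type AMsh libraries. In non-AMsh libraries they summed to 2716 to 5047 CPM in che-2 against 6954 to 8479 CPM in wild type. Of their log2 fold changes, 3 were above 0 and 6 below in each fraction (below 0 for 44.7% of all tested genes in AMsh and 50.8% in non-AMsh). The muscle sum was lower in every che-2 non-AMsh library than in any wild type one. In AMsh it overlapped, as did hypodermis and other glia in both fractions. The part of these cells in the BBSome and IFT values was not tested. Of 11 AMsh genes measured, edgeR called 5 higher in AMsh in each genotype (0.593% of tested genes in che-2 and 0.431% in wild type). Not all followed: lit-1 was nearly level between fractions (log2 fold change 0.17 in each genotype). In che-2, mls-2 and daf-6 were lower in AMsh (−5.85 and −0.63). Between genotypes in AMsh cells, edgeR called 0 of the 11 (0.461% of tested genes), and 2 were lower at an unadjusted p under 0.05 (4.95%).

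**Figure D5:**
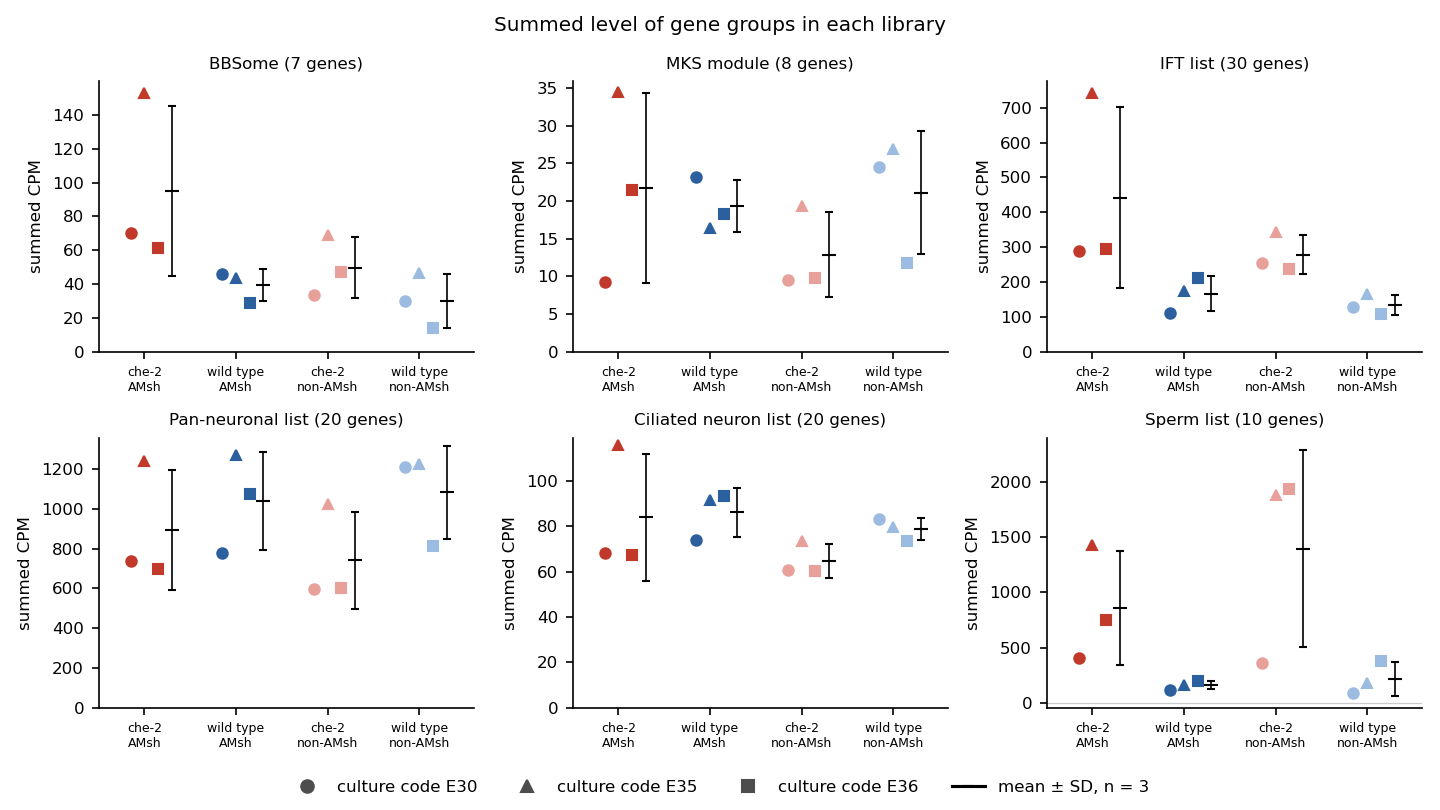
Summed CPM of the BBSome, the MKS module, the IFT list, pan-neuronal genes, genes of ciliated neurons and sperm genes in 12 libraries by group, with the mean and SD of 3 libraries. BBSome and IFT sums of che-2 AMsh lie above those of wild type AMsh without overlap, as do the sperm sums, while the MKS and neuron sums overlap.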

How the data were processed

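Per the labels' protocols, SMARTer amplification of the sorted cells' RNA preceded Illumina sequencing. Per the submitters' processing notes, CASAVA 1.8.2, FastQC, STAR 2.3 and featureCounts were used with build WBcel235. Strand setting and annotation release are not given in the sources used here. A single table was deposited by the authors: raw counts as integers, by gene and library, beside each gene's exon length in bases. All 12 value columns were assigned from the codes in the file's header lines, matched to the titles. The E35 columns carry E36 in their path-like names, and the header codes were followed.

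Counts were scaled by TMM, filtered with filterByExpr (16690 genes kept) and fitted in 1 quasi-likelihood model of the 4 groups (edgeR 4.0.16, R 4.3.3). The fit left 8 residual degrees of freedom, and the common biological coefficient of variation was 0.732. Tests are 2-sided, adjusted by Benjamini-Hochberg over all genes of a comparison at 0.05. The fit was tested on simulated data with large changes in well counted genes, which does not measure its power for members with few counts. CPM use TMM-scaled totals, and CPM per kb divide by the deposited exon length. Within-culture counts compare CPM directly. Groups do not overlap where every library of one lies above every library of the other. Means are given with SD over 3 libraries. Library totals of 15420762 to 26019499 counts put the limit of a count of 0, taken as 3 counts, at 0.108 to 0.177 CPM after TMM scaling.

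Both fractions of a culture share animals: after group means were removed, same-culture libraries correlated across genes at 0.503, 0.416 and 0.159 in che-2 and 0.269, 0.203 and 0.273 in wild type, so the fractions are paired. Alternatives were DESeq2 1.42.0, RLE and upper-quartile scaling, no filter, blocks by code and by culture, fits of only the groups compared, and leaving out libraries. The SE and p values given for the fractions come from the main fit, which leaves this pairing out. With the block by culture, the member median was 0.62 between the fractions of che-2 (0.92 in the main fit) and 0.13 in wild type (0.39). In che-2 it was 1.34 for xbx-3 (2.12) and 1.72 for bbs-2 (1.82).

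The members and gene lists were chosen with earlier results of these data known. Test values are given for the 4 members with the smallest p in each comparison and for daf-19. Other members are given by level. Positions are those of the deposited table. Figures were drawn with matplotlib 3.10.9 in Python 3.11.15, with pandas 2.3.3.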

Additional observations from a re-analysis of the deposited data

Results flagged for a closer look

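For 2 members, every che-2 culture had a higher level in AMsh than in non-AMsh cells and every wild type culture the opposite order, and this is what singled them out. Over all tested genes, 12.99% were higher in AMsh in every che-2 culture, and 20.2% were higher in AMsh in no wild type culture. The share of genes with both was not counted, so the 2 members have no background to be read against. The difference itself was tested as an interaction and did not pass. For bbs-8, the fraction ratio was 1.78 higher in che-2 than in wild type on the log2 scale (SE 1.47, edgeR unadjusted p = 0.248, adjusted p = 1.00). For che-12 the difference was 3.06 (SE 1.87, edgeR unadjusted p = 0.128, adjusted p = 1.00). Groups of 3 libraries are too small to look for outlying samples, although che-2 AMsh E35 and wild type AMsh E30 stand apart by their detected genes.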

How the results depend on the processing

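No member was called under any alternative run, 19 or 20 in each comparison, by edgeR or DESeq2, and with the replicate block by code or by culture the count was again 0 of 30. That block changed no member's call. By code, genotypes were not paired in AMsh (correlations 0.0148, −0.00127 and 0.0395) and not in all non-AMsh libraries (0.187, 0.0769 and 0.201). Without both libraries with the fewest detected genes, the log2 fold change of daf-19 was −0.27 between the fractions of che-2, −1.06 between genotypes in AMsh and −0.050 for the difference of changes, where the values with all libraries were above 0. Leaving out 1 library at a time gave −0.27 to 1.56 for daf-19 between the fractions of che-2, −0.75 to 1.09 for daf-19 between genotypes in AMsh, and −0.050 to 4.31 for arl-13 between genotypes in non-AMsh. The cause was not tested. Member medians ranged over the alternatives from 0.14 to 1.07 between the fractions of che-2 and from −0.04 to 0.84 between genotypes in AMsh, less widely than the log2 fold changes of single members such as osm-12 (2.55 to 7.44) and nphp-1 (0.41 to 4.33) between genotypes in AMsh. The counts of members apart without 1 or both of these libraries, and of the IFT list without che-2 and dyf-7, were added after the data were seen. Over all genes, the number called varied with the setting, from 0 to 189 between the fractions of che-2 and from 0 to 1010 between genotypes in AMsh, the highest with DESeq2. Most members were at a few CPM, and a count of 0 allows 0.108 to 0.177 CPM on the scaled library size.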
